A study of Mus musculus with 4 samples.

Results

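The ETS, SOXF and hematoendothelial transcription factors examined here were 10 genes chosen by symbol: the ETS genes Erg, Fli1, Ets1 and Elk3, the SOXF genes Sox7, Sox17 and Sox18, and Tal1, Lmo2 and Gata2. All 10 were found among the 24873 genes of the deposited table. RNA-Seq had been performed on brain cells of Cdh5cre;Mgpflox/flox mice in both groups. The VE-cadherin (Cdh5) promoter drives a Cre recombinase that tamoxifen switches on, and both copies of Mgp are floxed. The control group (2 libraries, "No Tamoxifen") received no tamoxifen, and the tamoxifen group (2 libraries) received tamoxifen at 75 mg/kg on each of 5 days, starting at an age of 10 weeks. Cells were taken on day 9 and pooled from 3 mice for each library, with both sexes in the study. The study's methods describe CD31+CD45- cells, whereas the labels name tdTomato+ brain cells. No group in these libraries received tamoxifen without the floxed Mgp gene, so the drug and the deletion cannot be told apart.

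The columns of the table are headed by C or A and a number. The C columns were taken as control, and the A columns as tamoxifen because that was the group left. The labels give no A, so the direction of every comparison rests on this reading. Values are normalized counts, which are reads per gene divided by 1 factor per library. The libraries held between 35387438 and 49799321 reads on genes. Mgp itself, the deleted gene, had 1094 and 1352 normalized counts without tamoxifen and 945 and 909 with it. Its log2 fold change of -0.39 did not pass (limma, adjusted p = 0.0986). Its groups did not overlap, which held, with tamoxifen lower, for 39.2% of all tested genes. The libraries are bulk, so these values do not measure Mgp in endothelial cells alone.

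ETS factors share a DNA-binding domain that reads a GGAA core, and many enhancers of endothelial genes hold such sites. ERG and FLI1 are close paralogs that keep the endothelial program active, ETS1 acts in angiogenesis, and ELK3 is a ternary complex factor of the same family that is mostly a repressor. The SOXF factors SOX7, SOX17 and SOX18 bind DNA through an HMG box and act in arterial and lymphatic specification and in vessel integrity. TAL1 (a bHLH factor), LMO2 (a LIM-only bridging protein) and GATA2 (a zinc finger factor) assemble in 1 complex on paired E-box and GATA sites, which works in blood stem cells and in the endothelium they come from.

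The results turn on 5 of these genes: Gata2, Sox18, Sox17 and Erg, the 4 whose change differed least from that of endothelial marker genes, and Tal1, whose change differed most. Their promoters are shown for that reason, as the 250 bases before the start of the transcript that GENCODE M39 marks as canonical, read 5′ to 3′ on the gene's strand from GRCm39. Capitals mark each ETS core, GGAA or its reverse complement TTCC.
Gata2 (chr6:88175063-88175312, plus strand): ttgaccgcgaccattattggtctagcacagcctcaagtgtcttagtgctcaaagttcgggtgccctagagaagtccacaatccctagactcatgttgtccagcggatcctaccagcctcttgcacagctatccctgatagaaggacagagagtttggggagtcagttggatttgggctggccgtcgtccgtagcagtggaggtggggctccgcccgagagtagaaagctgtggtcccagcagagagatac
Sox18 (chr2:181313439-181313688, minus strand): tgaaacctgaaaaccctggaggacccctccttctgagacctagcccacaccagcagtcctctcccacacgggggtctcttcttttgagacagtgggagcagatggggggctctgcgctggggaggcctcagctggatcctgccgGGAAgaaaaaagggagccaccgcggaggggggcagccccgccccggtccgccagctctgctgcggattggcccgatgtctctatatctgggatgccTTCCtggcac
Sox17 (chr1:4566637-4566886, minus strand): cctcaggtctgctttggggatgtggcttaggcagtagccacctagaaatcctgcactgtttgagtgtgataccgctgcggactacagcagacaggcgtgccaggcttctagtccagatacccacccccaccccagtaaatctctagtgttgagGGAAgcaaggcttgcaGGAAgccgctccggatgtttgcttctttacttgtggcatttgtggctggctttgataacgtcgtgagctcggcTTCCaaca
Erg (chr16:95260208-95260457, minus strand): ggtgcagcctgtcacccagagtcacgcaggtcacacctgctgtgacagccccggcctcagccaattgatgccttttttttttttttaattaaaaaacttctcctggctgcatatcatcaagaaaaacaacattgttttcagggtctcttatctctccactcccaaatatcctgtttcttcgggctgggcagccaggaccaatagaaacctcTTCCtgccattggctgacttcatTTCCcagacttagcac
Tal1 (chr4:114916455-114916704, plus strand): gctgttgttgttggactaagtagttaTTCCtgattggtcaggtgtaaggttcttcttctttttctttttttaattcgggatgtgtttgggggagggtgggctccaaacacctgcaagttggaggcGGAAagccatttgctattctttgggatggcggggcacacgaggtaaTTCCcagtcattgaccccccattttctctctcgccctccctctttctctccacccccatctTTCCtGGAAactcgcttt

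The Tal1 window held 5 ETS cores, the Sox17 window 3, the Sox18 and Erg windows 2 each, and the Gata2 window 0. The median was 2 over the 10 factors and 3 over all promoters. Over all 10 factors, 9 windows held at least 1 GGAA on either strand, against 93.9% of the 21757 promoters of the same length, a share near that of the factors. An E-box (CANNTG) was found in 8 of 10 windows against 64.8% of all promoters. A GATA core (GATAA) was found in 3 of 10, those of Erg, Fli1 and Sox17, against 22.4%. A SOX core (ACAAT) was found in 3 of 10, those of Erg, Fli1 and Gata2, against 26.9%. The motifs were counted on both strands and may overlap one another, and other start sites of these genes were not examined. The GC content of the windows ranged from 47.2% for Erg to 72.4% for Ets1, with a median of 53.2% over all promoters.

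Each of the 10 factors had lower values in the tamoxifen group with no overlap, and 9 of the 10 passed an adjusted p of 0.05 and a log2 fold change over 1 in size. Gata2 had the largest log2 fold change, -3.26, and Tal1, the 1 factor not called, the smallest, -0.79. The median log2 fold change of the 10 was -2.35. Over the 20485 genes whose mean normalized count reached 10, limma with Benjamini-Hochberg adjustment called 16.0% lower and 28.6% higher (44.7% in either direction), and the median over all of them was 0.05. The groups did not overlap, with tamoxifen lower, for 39.2% of these genes, and with tamoxifen higher for 43.1%. Fold changes are on the log2(normalized count + 1) scale. The smallest two-sided p of an exact permutation test is 0.333 with these group sizes, and limma instead borrows its estimate of the spread from all genes. In these bulk libraries fewer endothelial cells and less RNA per cell cannot be told apart.

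**Figure D1:**
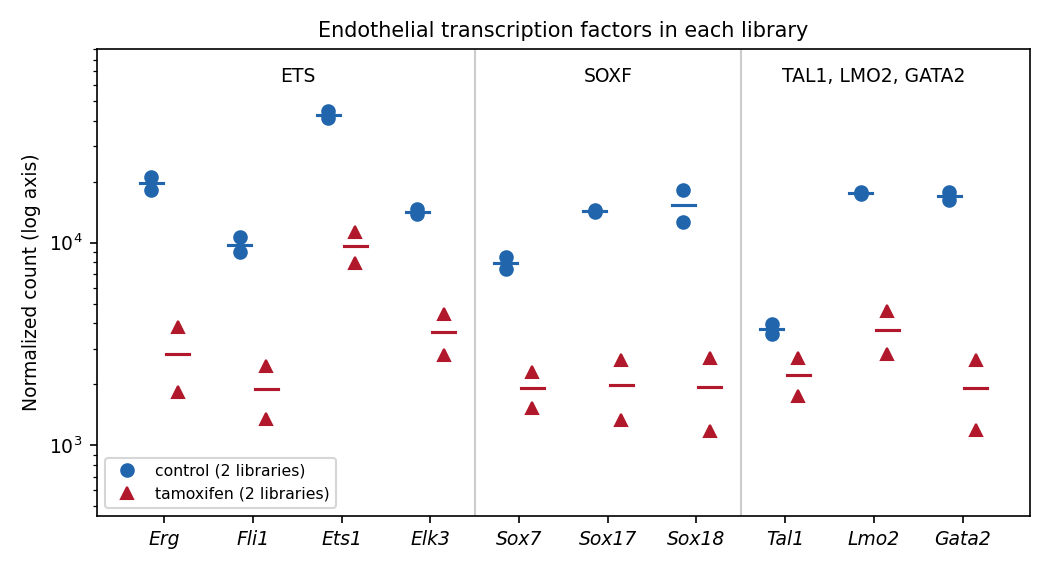
Normalized counts of the 10 factors in each library on a log axis, with control libraries as circles, tamoxifen libraries as triangles and horizontal bars at the group means. The tamoxifen values of every factor lie below its control values, with the smallest gap for Tal1.

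Among the ETS factors, Ets1 had the highest normalized counts. Ets1 (chromosome 9, from 32547517 to 32669116 of GRCm39) had 44407 and 41206 normalized counts without tamoxifen and 11234 and 7927 with it. The groups were far apart, and the control libraries were close to each other. Ets1 fell by 2.18 on the log2 scale (SE 0.23, limma, adjusted p = 0.000169). Erg (chromosome 16, from 95160028 to 95387452) had 18287 and 21186 normalized counts without tamoxifen and 3821 and 1827 with it. Its tamoxifen libraries differed 2.09-fold from each other, but the higher of them was still far below the controls. Erg fell by 2.90 (SE 0.32, limma, adjusted p = 0.000192).

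Fli1, the paralog of Erg (chromosome 9, from 32333500 to 32454157), had 10607 and 8949 normalized counts without tamoxifen and 2466 and 1346 with it. It lies beside Ets1 on the same chromosome, and its fall of 2.42 on the log2 scale (SE 0.27, limma, adjusted p = 0.000223) lay between those of Ets1 and Erg. Elk3 (chromosome 10, from 93083276 to 93147056) had 13780 and 14626 normalized counts without tamoxifen and 4426 and 2784 with it. Elk3 fell least of the 4 ETS factors, by 2.02 (SE 0.23, limma, adjusted p = 0.000232), which left it at 25.4% of its control mean.

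All 3 SOXF factors were called lower, with larger fold changes for Sox18 and Sox17 than for Sox7, a difference between genes that was not tested. Sox17 (chromosome 1, from 4561151 to 4567784) had 14185 and 14465 normalized counts without tamoxifen and 2641 and 1331 with it. Its control libraries were nearly equal, and its log2 fold change was -2.93 (SE 0.29, limma, adjusted p = 0.000133). Sox18 (chromosome 2, from 181311629 to 181313438) had 12581 and 18127 normalized counts without tamoxifen and 2701 and 1178 with it. Both groups of Sox18 were spread out, the tamoxifen libraries by 2.29-fold, and it fell by 3.08 (SE 0.37, limma, adjusted p = 0.000278). Sox7 (chromosome 14, from 64181006 to 64188352) had 7412 and 8500 normalized counts without tamoxifen and 2300 and 1535 with it. Its log2 fold change of -2.08 (SE 0.21, limma, adjusted p = 0.000149) was the smallest fall of the 3 SOXF genes.

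Of the TAL1, LMO2 and GATA2 genes, Gata2 and Lmo2 were called lower and Tal1 was not. Gata2 (chromosome 6, from 88170559 to 88184018) had 16152 and 17755 normalized counts without tamoxifen and 2650 and 1185 with it. It was 8.84-fold lower in mean, with a log2 fold change of -3.26 (SE 0.33, limma, adjusted p = 0.000147). GATA2 is also a factor of pituitary cells, and 7 pituitary marker genes summed to 13118 and 36985 normalized counts without tamoxifen and to 171 and 182 with it. Of these 7 markers, 6 were called lower and 1 higher, against 16.0% and 28.6% of all tested genes. Pomc, the most abundant of them, had 8105 and 25839 without tamoxifen and 107 and 70.5 with it. The part of pituitary RNA in the fall of Gata2 was not tested.

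Lmo2 (chromosome 2, from 103788331 to 103812355) had 17420 and 17862 normalized counts without tamoxifen and 4619 and 2838 with it. It fell by 2.28 on the log2 scale (SE 0.24, limma, adjusted p = 0.000156). Tal1 (chromosome 4, from 114913623 to 114928952) had 3976 and 3536 normalized counts without tamoxifen and 2692 and 1744 with it. Its groups did not overlap, but the gap between them was small beside those of Lmo2 and Gata2. The log2 fold change of Tal1 was -0.79 (95% interval -1.30 to -0.28), which passed the adjusted p (limma, 0.0161) but not the size of 1. With the libraries rescaled to equal totals it was -0.32, where the adjusted p did not pass (limma, 0.209), nor did it without tamoxifen library 2 (0.101) or without a trend in the variance (0.0919).

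In every factor tamoxifen library 2 lay below tamoxifen library 1, by 1.42-fold for Ets1 to 2.29-fold for Sox18. The same order was found for 12 of 12 endothelial reference genes, between 1.64-fold and 2.30-fold, and for 58.0% of all tested genes. Without tamoxifen library 1, Tal1 had a log2 fold change of -1.10 and all 10 factors were called lower. Without tamoxifen library 2, Tal1 stood at -0.48, and 9 factors were called.

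Levels of the 10 factors were compared per kilobase of merged exon length. In the control libraries Sox18 had the highest level, 7742 and 11155 normalized counts per kilobase, followed by Lmo2 with 7464 and 7653, Erg with 5261 and 6095, and Ets1 with 5232 and 4855. The means of Sox18 and Lmo2 differed by less than the Sox18 libraries did, and the lower Erg library lay just above the higher Ets1 library, so neither pair was separated beyond its spread. Sox17, Elk3, Fli1, Sox7 and Gata2 formed a middle group between 1993 and 2714, and Tal1 was lowest with 777 and 691. In the tamoxifen libraries Lmo2 had the highest mean level, 1598 normalized counts per kilobase, and Gata2 the lowest, 239. Tal1, with 526 and 341, then lay above both Gata2 libraries and overlapped Sox17, with 496 and 250. On the length of the canonical transcript alone the order changed. In the control means Lmo2 (9561) passed Sox18 (9449), Ets1 (8415) passed Erg (6206), and Gata2 moved from rank 9 to rank 5. Tal1 was then lowest in both groups. In the tamoxifen means it had 531, against 535 for Sox7 and 536 for Gata2, a gap smaller than the spread of the libraries.

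To see how far each factor followed the endothelial RNA of its library, the mean log2 level of 12 endothelial marker genes that are not transcription factors (Pecam1, Cdh5, Cldn5, Esam, Emcn, Kdr, Flt1, Tie1, Tek, Eng, Egfl7 and Robo4) was subtracted in each library and the fit was repeated across all genes. These reference genes, many of them known ETS targets, fell by 3.03 in mean on the log2 scale, with single genes between -3.43 and -2.75. Pecam1 (CD31) had 83681 and 88796 normalized counts without tamoxifen and 15987 and 8973 with it. Cdh5 (VE-cadherin) had 79151 and 86328 without tamoxifen and 15585 and 8508 with it. Relative to this mean, limma called 88.0% of all tested genes higher and 0.0732% lower, so most genes in the table lay above the reference. The median over all tested genes was 3.08, and Mgp stood at 2.64.

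Relative to the reference genes, 8 of the 10 factors were not called, and 0 were called lower. The other 2, Tal1 and Elk3, were called higher, as were 88.0% of all tested genes. Gata2 differed from the reference by -0.23 on the log2 scale (95% interval -1.23 to 0.78), Sox18 by -0.05 (-1.06 to 0.96), Sox17 by 0.10 (-0.92 to 1.11) and Erg by 0.13 (-0.84 to 1.11). The intervals are wide, and do not show that these genes moved alike. Their width comes almost wholly from the spread that limma borrows from all genes, not from the spread of these genes. In each library the distance of Sox17 from the reference was nearly constant, at -2.46 and -2.48 without tamoxifen and -2.37 and -2.38 with it on the log2 scale. Erg lay between -2.10 and -1.83 in all 4 libraries, and its groups nearly met, at -1.93 and -1.92.

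The 4 factors between these and Elk3 had positive differences that were not called. Fli1 differed by 0.61 on the log2 scale (95% interval -0.43 to 1.65), Lmo2 by 0.75 (-0.22 to 1.71), Ets1 by 0.85 (-0.01 to 1.71) and Sox7 by 0.95 (SE 0.54). Elk3 was called higher, by 1.01 (0.04 to 1.99, limma, adjusted p = 0.0473), a call that 7 of 13 other settings did not keep. Tal1 stood furthest out, with 2.24 (1.15 to 3.33, limma, adjusted p = 8.86e-05). The distance of Tal1 from the reference went from -4.30 and -4.51 in the control libraries to -2.34 and -1.99 in the tamoxifen libraries. With either control library left out the difference of Tal1 was 2.35 or 2.13 but was not called, with an adjusted p of 0.107 without control library 1 and 0.143 without control library 2 by limma.

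**Figure D2:**
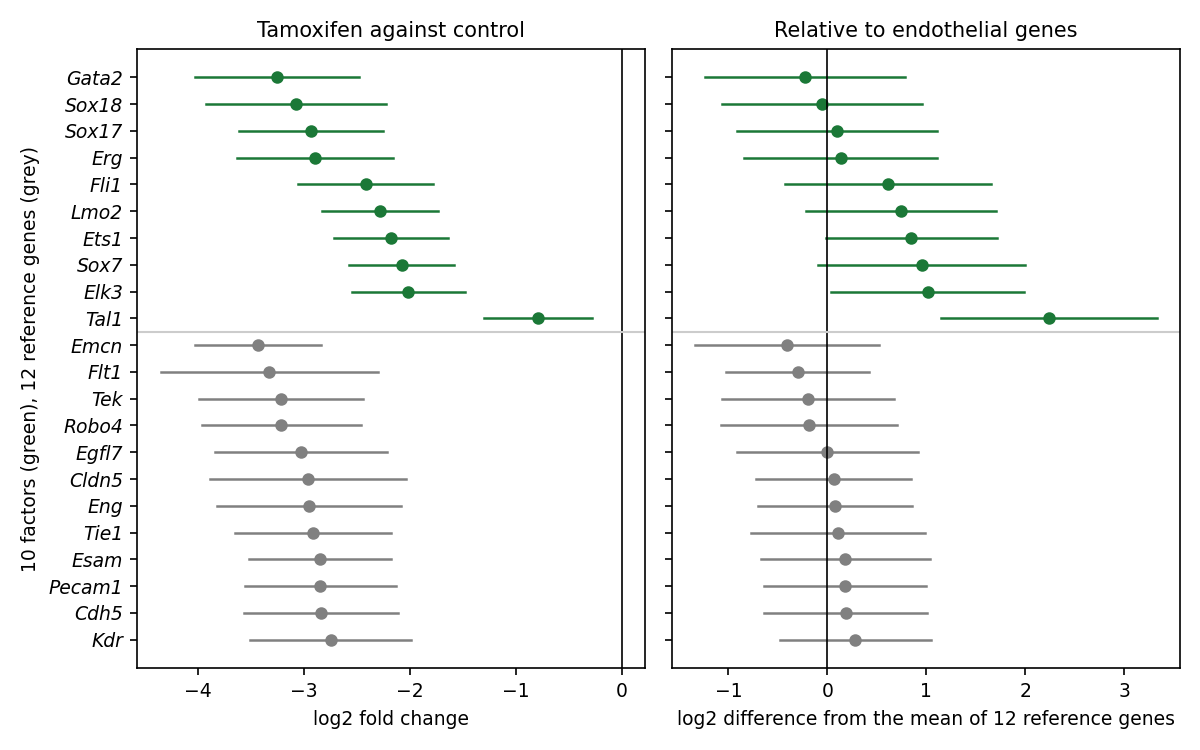
Log2 fold change between tamoxifen and control libraries (left) and log2 difference from the mean of 12 endothelial reference genes (right), for the 10 factors in green and the reference genes in grey. Points are limma estimates and lines 95% intervals. Gata2, Sox18, Sox17 and Erg lie among the reference genes and Tal1 lies apart at 2.24.

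Vascular genes described as targets of ETS, SOXF or GATA factors were lower as well. Of 10 such genes outside the reference list, 9 were called lower and 0 higher, against 16.0% and 28.6% of all tested genes, with a median log2 fold change of -2.81. Vwf (von Willebrand factor) had a log2 fold change of -2.81, Ramp2 (a receptor subunit for adrenomedullin) -2.82, Flt4 (the receptor of VEGF-C) -2.86 and Notch4 -2.57. Edn1, the gene of endothelin-1 and a classical GATA2 target, had the largest fall of the list, to 9.66% of its control mean, with 6836 and 8795 normalized counts without tamoxifen and 1076 and 434 with it. Efnb2 (ephrin-B2), named after its values were seen, was the 1 target not called, with -0.78. Relative to the endothelial reference genes, 0 of the 10 targets were called lower, 1 higher and 9 neither way, with a median of 0.22. In that comparison 0.0732% of all tested genes were called lower and 88.0% higher. Whether the fall of the factors had a part in that of these genes was not tested.

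The other ETS genes moved in both directions. Of 22, 21 were listed and 20 tested, and 5 of these were called lower, 11 higher and 4 neither way, with a median log2 fold change of 2.44, or 2.20 when genes at the floor of 3 reads take their bound. Over all tested genes 16.0% were called lower and 28.6% higher. Some of the ETS genes called higher, Elf3 among them, had control means below 10 and were tested only because of the tamoxifen libraries. For those genes a call could only be higher. Of the 4 most abundant of these ETS genes, Ets2, Elk4 and Elf2 were called lower and Erf was not. Ets2, the closest relative of Ets1, had 13212 and 13176 normalized counts without tamoxifen and 3290 and 2181 with it, a log2 fold change of -2.30 (SE 0.21, limma, adjusted p = 0.000100). Elk4, a relative of Elk3, fell by 1.79, and Elf2 by 1.15. Erf, a repressor, had 0.11 with overlapping groups.

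Several ETS genes called higher were scarce in the control libraries. Elf3, a factor of epithelia, had 1.37 and 11.3 normalized counts without tamoxifen and 978 and 678 with it. Spi1 (PU.1, the factor of myeloid cells) had 13.7 and 32.5 without tamoxifen and 965 and 579 with it, a log2 fold change of 5.07 (SE 0.50, limma, adjusted p = 0.000129). Etv2, the ETS factor that starts hematoendothelial development in the embryo, had 0 reads in both control libraries and 3 and 8 reads in the tamoxifen libraries, too few to be tested. The PEA3 genes Etv1, Etv4 and Etv5, targets of FGF signaling and named after their values were seen, rose by 2.99, 4.86 and 3.26 on the log2 scale.

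Outside SOXF, 15 of 16 SOX genes were listed and 14 tested, of which 12 were called higher and 1 lower, against 28.6% and 16.0% of all tested genes, with a median log2 fold change of 4.27. The 1 called lower was Sox13, a SOXD gene that had 10394 and 10322 normalized counts without tamoxifen and 2961 and 2161 with it. It fell by 2.03 (SE 0.19, limma, adjusted p = 9.93e-05), close to Sox7. Sox2, a factor of neural and pluripotent stem cells, had 140 and 181 normalized counts without tamoxifen and 5176 and 5511 with it, a log2 fold change of 5.06. Sox11, a factor of immature neurons, rose by 4.74, and Sox9, a factor of astrocytes and chondrocytes, by 1.13. Sox3 had 0 and 1 reads without tamoxifen and 112 and 194 with it. Sox3 and some others called higher had control means below 10 and were tested only because of the tamoxifen libraries. For those genes a call could only be higher. Sox4 had 0.88, past the adjusted p but under the size of 1.

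Partners of TAL1, LMO2 and GATA2 and other factors of blood formation made up a list of 23 genes. Of these, 22 were listed and tested, and 3 were called lower, 10 higher and 9 neither way, with a median log2 fold change of 0.34. The share called lower lay near the 16.0% of all tested genes, of which 28.6% were called higher. Cbfa2t3 (ETO2), the corepressor bound to the TAL1 complex, fell by 2.20 (SE 0.19, limma, adjusted p = 7.36e-05). Lyl1, the closest relative of Tal1, had 1961 and 2811 normalized counts without tamoxifen and 1170 and 692 with it, and fell by 1.38 (SE 0.28, limma, adjusted p = 0.00389). Tcf4 (E2-2), an E protein that pairs with TAL1, fell by 1.10, while the E protein genes Tcf12 and Tcf3 had -0.81 and -0.47, and Ldb1, which joins the complexes into loops, had -0.29.

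Several blood lineage factors had few counts in the control libraries. Gata1, the GATA factor of red cells, had 5.48 and 6.26 normalized counts without tamoxifen and 848 and 628 with it, a log2 fold change of 6.74 (SE 0.45). Runx1, the factor of emerging blood stem cells, rose by 3.98, from 45.2 and 60.1 to 986 and 706. Klf1 and Gfi1b, erythroid factors named after their values were seen, rose by 6.07 and 7.30. Gata4, a factor of heart and endoderm, had 1 and 2 reads without tamoxifen and 1251 and 1392 with it. The control means of Gata1, Gfi1b, Gata4 and some other genes called higher in the partner list lay below the filter mean of 10. These genes were tested only because of the tamoxifen libraries, so a call could only be higher.

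**Figure D3:**
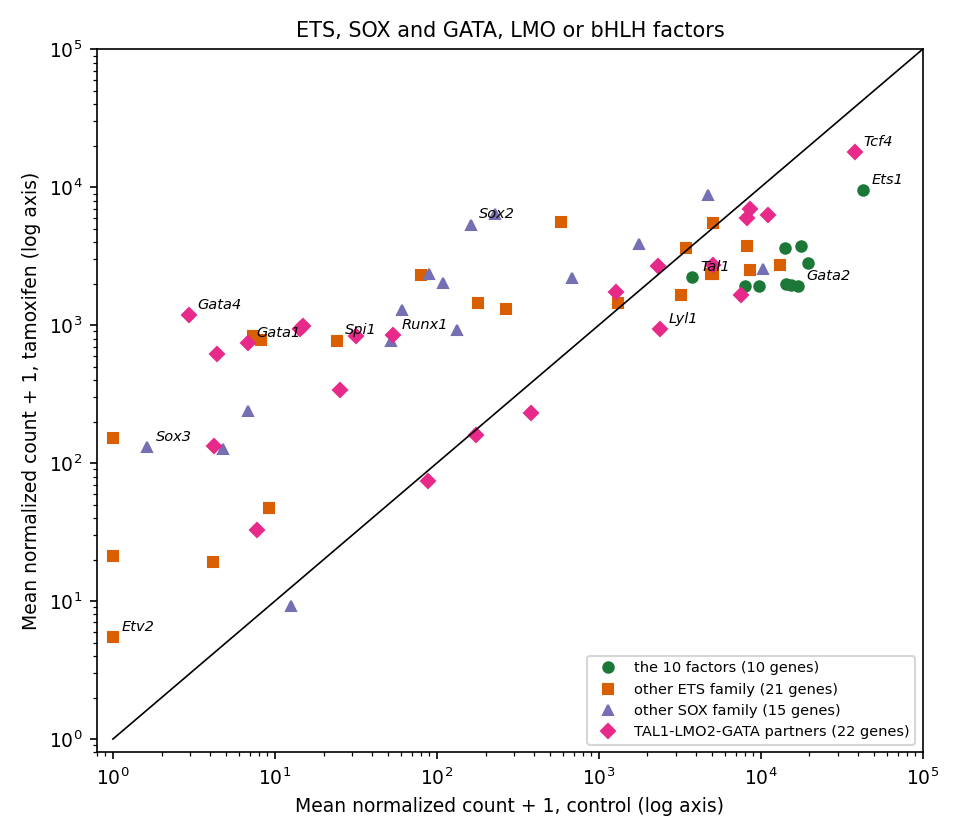
Mean normalized count plus 1 in the control libraries (horizontal, log axis) and in the tamoxifen libraries (vertical, log axis) for the 10 factors and 3 lists of related factors, with equality as a line. The 10 factors sit below the line at the abundant end, while Spi1, Gata1, Gata4 and Sox2 lie above it.

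Several of the 10 factors are also used outside the endothelium, Tal1, Lmo2, Gata2, Fli1 and Erg in blood cells and Sox17 in endoderm, and markers of such cells were higher in the tamoxifen libraries. Erythroid markers were called higher for 8 of 8 genes and summed to 17550 and 35323 normalized counts without tamoxifen and 164859 and 105986 with it. Hbb-bs, a beta globin gene and the most abundant of them, had 13778 and 27747 without tamoxifen and 98516 and 63429 with it. Megakaryocyte and mast cell markers were called higher for 7 of 7 tested genes, with sums of 292 and 573 without tamoxifen and 2949 and 2277 with it, and 3 of them had at most 3 reads in both controls. Neutrophil markers were called higher for 8 of 8 genes, with sums of 266 and 215 without tamoxifen and 94462 and 70241 with it. Lymphocyte markers were called higher for 5 of 5 tested genes of 7 listed. Pluripotency and early endoderm markers were called higher for 7 of 7 tested genes, with sums of 53.4 and 92.6 against 38935 and 30214. In the lymphocyte and the pluripotency lists, 3 listed genes each had at most 3 reads in both controls, and in the erythroid list 1. Genes with a control mean below 10, including those at that floor and some neutrophil markers, could be tested only through the tamoxifen libraries. For these a call could only be higher. Of all tested genes, 28.6% were called higher. The part of blood cells and endoderm in the values of Tal1 and the other factors was not tested.

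Markers of other brain cells were also measured, and their counts stand against 28.6% of all tested genes called higher. Astrocyte and fibroblast markers were called higher for 8 of 8 genes each, neuron and oligodendrocyte lineage markers for 6 of 8 each, and microglia and macrophage markers for 4 of 8. Of the fibroblast genes, 1 had at most 3 reads in both controls, so its call could only be higher. Pericyte and smooth muscle markers were called higher for 2 of 8, a share near that of all genes, and their sums overlapped, with 31698 and 58473 without tamoxifen and 38754 and 77986 with it. The sums of the 12 endothelial reference genes were 1175577 and 1186499 without tamoxifen and 203922 and 103295 with it. Endothelial markers were thus abundant in the control libraries and present in all 4. The 8 astrocyte markers summed to 29940 and 35633 without tamoxifen and to 154890 and 322181 with it. In tamoxifen library 2 the astrocyte sum exceeded the endothelial sum. The lists hold different genes, so these sums are not shares of cells. The CD31+CD45- gate of the study's methods leaves out CD45+ cells, to which neutrophils and lymphocytes belong.

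**Figure D4:**
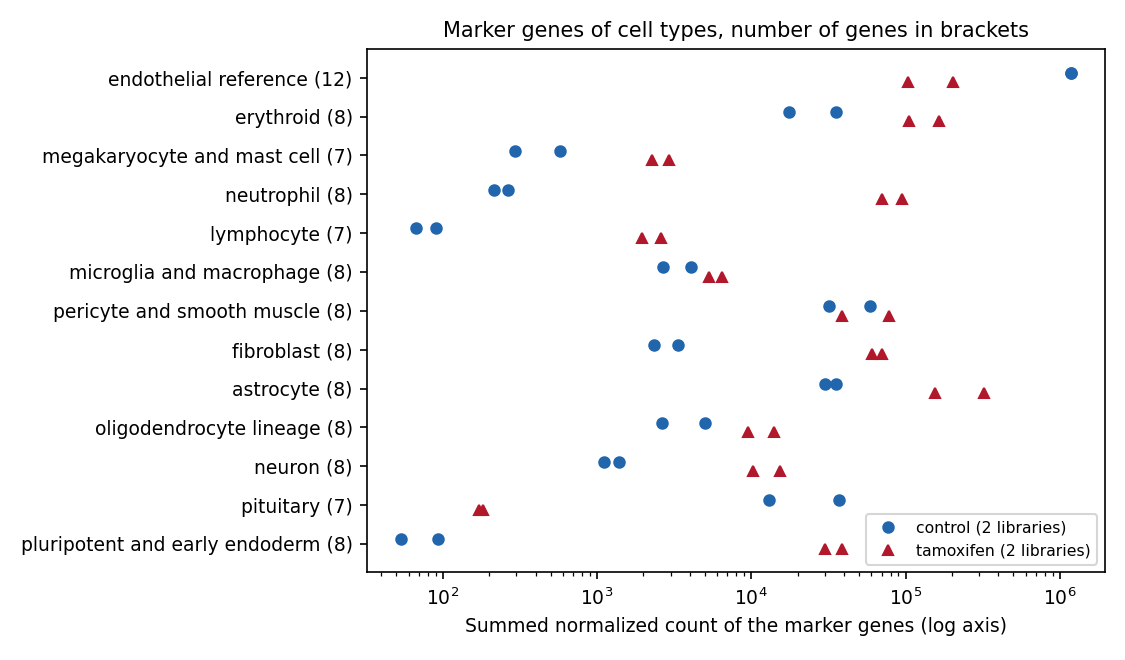
Summed normalized counts of marker genes of 13 cell types in each library on a log axis, with control libraries as circles and tamoxifen libraries as triangles. Endothelial and pituitary sums are lower in both tamoxifen libraries, pericyte and smooth muscle sums overlap, and the other sums are higher.

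Genes that overlap the 10 factors limit what single values mean, since the library kit keeps strand but the strand setting of the counting was not stated. Antisense exons cover 19.4% of the merged exons of Elk3 (Cdk17, 6623 and 4789 normalized counts without tamoxifen and 2392 and 2389 with it), 19.0% of those of Sox17 (Gm37587, 195 and 118 against 21.7 and 10.1) and 9.85% of those of Lmo2 (4931422A03Rik, 304 and 168 against 61.8 and 45.3). The overlapping genes of Sox17 and Lmo2 had far fewer counts than the factors, whereas Cdk17 had 2389 against 2784 of Elk3 in tamoxifen library 2. Antisense RNAs that the table does not list cover 25.8% of the merged exons of Sox18 and 11.5% of those of Gata2.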

How the data were processed

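RNA-Seq libraries from 2 control and 2 tamoxifen groups of mouse brain cells were analysed. The authors aligned reads to GRCm39 with STAR 2.7.10a, excluded low-count genes and normalized with DESeq2 1.36.0. The annotation release and strand setting are not given in the sources used here. The deposited table holds normalized counts (a signal per gene). Dividing each column by its smallest step gave whole reads for 100% of values (tolerance 0.001), 35387438 to 49799321 per library.

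Genes with a mean of at least 10 were tested with limma 3.58.1 (trend, Benjamini-Hochberg adjustment) on log2(normalized count + 1) in R 4.3.3. A gene was called at an adjusted p under 0.05 and a log2 fold change over 1 in size. The same fit was run after the mean of 12 endothelial genes was subtracted per library. A value of 3 reads was taken as the floor, which covers counting error only. Alternatives were DESeq2 1.42.0 or edgeR 4.0.16 run on the recovered reads, other pseudocounts, filters and scalings, a replicate block and leaving out each library. Exon lengths and promoters came from GENCODE M39 and GRCm39 through Python 3.11.15.

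Named genes were all 10 factors; from each related list, the 4 most abundant genes and the largest call in each direction; Spi1, Etv2, Runx1, Gata1, Lyl1, Sox2 and Mgp; and, of markers, Pecam1, Cdh5 and the most abundant of a list, given here for the erythroid and pituitary lists, with the other marker lists described by counts and sums. Efnb2, Etv1, Etv4, Etv5, Klf1 and Gfi1b fall outside this rule and were named after their values were seen. The factors and lists were chosen with earlier results of these data known. Protein sequences were not used here.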

Additional observations from a re-analysis of the deposited data

How the results depend on the processing

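Of the 10 factors, 9 were called lower under 13 of 15 alternatives, and 10 without tamoxifen library 1 or with the adjusted p alone. None was called higher in any of the 15. Relative to the endothelial genes, 2 factors were called higher, but 1 with Pecam1 and Cdh5 alone as the reference, with the median of the reference genes and without a variance trend, and 0 to 4 when a library was left out (0 without either control library, 4 without tamoxifen library 1). The cause of these shifts was not tested. In the main fit relative to the endothelial genes, 88.0% of all tested genes were called higher. Signs turned for differences near 0: Erg had -0.051 and Sox17 -0.088 with Pecam1 and Cdh5 alone, and Erg -0.045 and Sox17 -0.081 with the median of the reference genes, while Sox18 ranged from -0.29 to 0.19 when a library was left out and was above 0 without control library 2 (0.19) or tamoxifen library 2 (0.06).

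The labels do not say whether the replicate numbers pair the libraries. Deviations from the group mean had a correlation of 0.0251 across genes between same-numbered libraries. With 2 libraries per group, library 2 mirrors library 1 in these deviations, so the value cannot decide whether the libraries are paired. With a replicate block 9 factors were called lower, and 1 instead of 2 higher relative to the endothelial genes.

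Scaling moved the median log2 fold change of all genes from 0.05 to 0.54 with equal totals and to -0.20 with quantile normalization. Higher calls made up 64.1%, 80.3% and 47.2% of calls in these scalings. Of all tested genes, 16.0%, 8.78% and 25.8% were called lower in them, and 9 of the 10 factors in each. Other ETS genes called lower went from 5 to 2 in both rescalings, and those called higher from 11 to 7 with a filter at a mean of 100 and without tamoxifen library 2. TAL1 partners called lower went from 3 to 5 with quantile normalization, 1 with equal totals and 6 with the adjusted p alone. These list counts were recomputed under alternatives chosen after seeing the data. Each of the 10 factors had at least 1638 reads in every library.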
